A study of Mus musculus with 10 samples.

Results

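In RNA from sorted brain endothelial cells, 31 marker genes of neurons, macroglia and choroid plexus were followed across all 10 libraries of the series. They were chosen by gene symbol from the deposited expression table of 26264 genes, with low values kept. By class they comprised 10 astrocyte markers, 8 oligodendrocyte markers, 9 neuron markers and 4 markers of choroid plexus and ependyma. All 31 were present in the table. The cells came from C57BL6 mice that ate either control diet or diet with PLX5622 at 1200 ppm for 1 month, and each diet had 3 male and 2 female mice. PLX5622 inhibits CSF1R, a receptor that microglia need to survive. Cells positive for CD31, an endothelial surface protein, were sorted from dissociated brain after meninges, cerebellum and olfactory bulbs had been taken off, so the choroid plexus was not named among the parts removed. Each library is called by diet, sex and replicate number, and values in every library are given in the order male 1, male 2, male 3, female 1, female 2.

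Astrocytes wrap brain vessels with end-feet, which carry the water channel Aqp4, and clear glutamate through Slc1a2 and Slc1a3. Oligodendrocytes make myelin from proteins such as Mbp, Mog, Mag and Mobp, and neurons release transmitter with the vesicle proteins Snap25, Syt1 and Syn1. The choroid plexus is an epithelium on fenestrated vessels in the ventricles that secretes cerebrospinal fluid and the carrier protein Ttr. Ependymal cells line the ventricles and beat motile cilia, whose genes are switched on by the transcription factor Foxj1.

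Whole reads recovered from the deposited values came to 26.4M to 61.5M per library, with a median of 31.2M and the highest in control male 2 (M stands for 1e+06 reads). The level unit is TPM, reads per gene length scaled so that all libraries share 1 total, so levels can be compared between genes. All 9 endothelial genes listed as a check were abundant, with a summed level of 16412 to 18868 TPM, led by the tight junction claudin Cldn5 at 6205 to 8079 TPM. The 31 markers together summed to 216 to 1233 TPM, and to 216 to 451 TPM without Ttr. They took 0.0263% to 0.0839% of the reads. Of the 10 libraries 2, male 3 of each diet, stood apart for many of the markers, as described class by class. In such bulk samples fewer cells of a type and less RNA per cell cannot be told apart, and neither can a carried-over cell be told from transcription in the endothelial cells.

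Promoters are printed for 3 members that mark the extremes of the results. Ptgds had the smallest p of the tested members, Cnp varied least between libraries, and Mag was the single member whose diets did not overlap. Each is the 250 bases before the start site, from RefSeq on GRCm38.p6, with matches to 4 searched motifs in capitals.
Ptgds, chr2:25469750-25469999, minus strand: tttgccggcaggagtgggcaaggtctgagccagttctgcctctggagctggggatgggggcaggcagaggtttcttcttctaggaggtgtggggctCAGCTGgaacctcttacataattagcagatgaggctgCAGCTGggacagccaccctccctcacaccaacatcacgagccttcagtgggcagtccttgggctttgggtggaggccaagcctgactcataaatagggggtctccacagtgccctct
Cnp, chr11:100574689-100574938, plus strand: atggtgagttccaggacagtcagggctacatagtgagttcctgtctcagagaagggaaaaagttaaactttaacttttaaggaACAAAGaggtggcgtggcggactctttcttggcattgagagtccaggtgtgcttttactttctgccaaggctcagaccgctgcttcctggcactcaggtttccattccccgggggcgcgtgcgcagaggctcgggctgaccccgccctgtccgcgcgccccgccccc
Mag, chr7:30914864-30915113, minus strand, first of 3 listed starts: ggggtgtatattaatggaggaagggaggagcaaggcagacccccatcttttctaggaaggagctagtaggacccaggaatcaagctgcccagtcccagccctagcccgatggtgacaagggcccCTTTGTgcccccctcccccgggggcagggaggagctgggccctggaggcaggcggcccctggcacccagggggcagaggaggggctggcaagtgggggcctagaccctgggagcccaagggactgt
Searched on both strands were the TATA box as TATAAA, the box known as CCAAT, a form of E-box spelt CAGCTG and a SOX-type motif spelt ACAAAG. The matches shown do not overlap one another. Cnp and Mag, which both encode myelin proteins, each held ACAAAG, a motif found in 16.5% of all 32851 listed promoters, and Ptgds held CAGCTG, found in 13.0%. Of the 22 members with a listed promoter, 6 held the SOX-type motif and 1 held the E-box. The TATA box was found in 3 members and 12.4% of all promoters, and the CCAAT box in 11 members and 33.8% of all promoters. These are matches of letters and not measured binding sites.

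Levels of the members differed widely between genes, and the classes interleaved. Ttr stood first with a mean of 285 TPM over all 10 libraries, but its SD of 294 TPM exceeded the mean, so it was not separated from Enpp2 at 124 ± 51.3 TPM (SD, n = 10). Gja1 followed at 63.2 ± 9.19 TPM, apart from its neighbours on both sides by more than the sum of the SDs. Aldoc at 27.2 ± 6.08 and Slc1a3 at 26.2 ± 7.10 TPM did not differ beyond their spread. The gap from Slc1a3 to Cnp, at 16.8 ± 1.80 TPM, again exceeded the sum of the SDs, and from Cnp downwards each member lay within the spread of the next. Altogether 7 members had a mean of at least 10 TPM, 12 had 1 to 10 TPM and 12 had less than 1 TPM. All 10 astrocyte markers and all 4 choroid and ependyma markers averaged above 1 TPM, against 2 of 8 oligodendrocyte and 3 of 9 neuron markers.

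**Figure D1:**
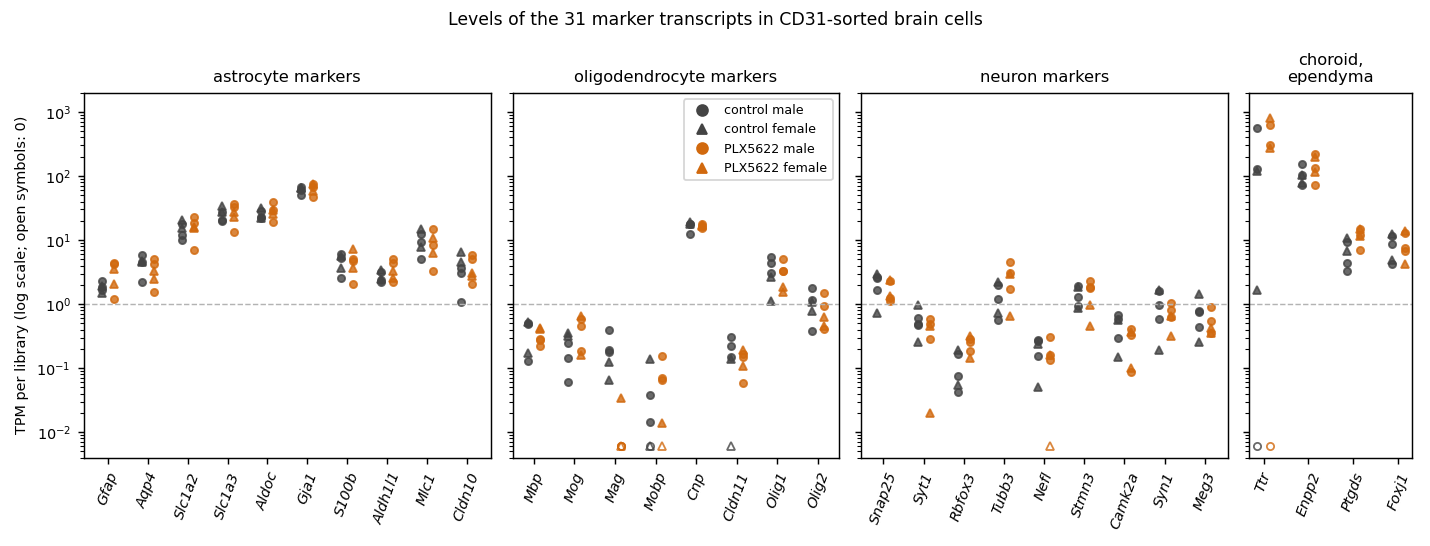
Level of each of the 31 markers in each library, in TPM on a log scale, with control diet in grey and PLX5622 in orange, males as circles, females as triangles and values of 0 as open symbols at the bottom. Astrocyte markers lie above the dashed line at 1 TPM in all libraries, most myelin and neuron markers lie below it, and Ttr runs from 0 to 820 TPM.

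Between the diets none of the members was called. The test was limma on log2(TPM + 1) with sex in the model, for genes at 1 TPM or more in at least 5 libraries, with p-values adjusted over all 12751 genes that passed. The filter was passed by 19 members, and the other 12 are described by their reads. Of the 19, limma called 0 at an adjusted p under 0.05, where 0.133% of all tested genes were called. An unadjusted p under 0.05 was found for 1 of the 19 and for 8.31% of all tested genes. Unadjusted limma counts between diets in the gene lists below are to be read beside that 8.31%. In voom on the recovered reads 0 were called and 2 had an unadjusted p under 0.05. The authors' deposited table of DESeq2 results held all 31 members and called 0 of them, where 0.596% of its genes were called. In it 5 of the 31 had an unadjusted p under 0.05, and the unadjusted share over all its genes is not given here. The median log2 fold change of the 19, PLX5622 minus control, was 0.03 with 12 above 0, and over all tested genes it was -0.02 with 5655 above 0. Diets overlapped for all 19 tested members and for all but 1.8% of tested genes.

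**Figure D2:**
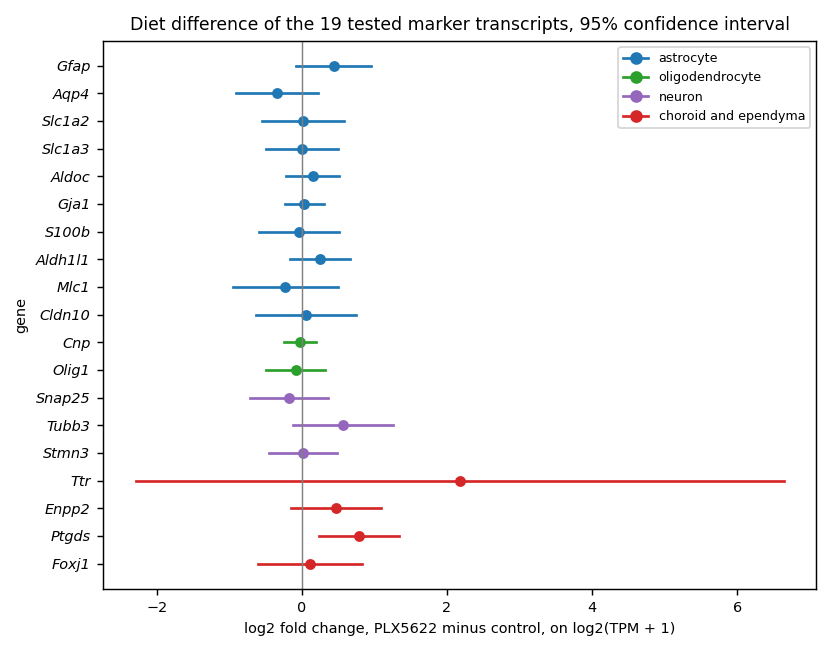
Log2 fold change, PLX5622 minus control on the log2(TPM + 1) scale, with its 95% confidence interval, for each of the 19 tested markers, coloured by class. The intervals of 18 markers include 0, that of Ptgds runs from 0.24 to 1.33 without passing the adjusted threshold, and that of Ttr is the widest, from -2.29 to 6.65.

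The tested markers varied between libraries of the same diet and sex more than the median gene did. The residual SD on the log2 scale, which is what remains after diet and sex are fitted, was 0.15 at the median over all tested genes. All 19 tested members lay above that median, from 0.16 for Cnp to 4.23 for Ttr. All 9 endothelial genes lay below it, from 0.033 for Pecam1, which encodes CD31, to 0.15 for Flt1. Markers of other non-endothelial cells also lay mostly above the median, with all 7 tested pericyte genes, 5 of 6 smooth muscle genes and both fibroblast genes. Alas2, listed as an erythrocyte gene, was at 0.54, but the globin genes of that list had 0 reads in all libraries. Ttr had the largest residual SD of all 12751 tested genes. Read counts differed too, at 5 to 27 per library for Stmn3, 2362 to 7824 for Enpp2 and 44865 to 109024 for Pecam1. The share of counting error in these SDs was not tested.

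Ttr, which encodes transthyretin, the thyroid hormone carrier secreted by choroid plexus epithelium, was at 558, 131, 0, 1.68 and 119 TPM on control diet. On PLX5622 it was at 309, 636, 0, 820 and 273 TPM. These values rest on 8352, 3451, 0, 23 and 1703 reads and on 3444, 7387, 0, 11027 and 3268 reads. Ttr was thus at 0 in male 3 of both diets and had 1703 reads or more in 7 of the other libraries, with control female 1 between them, and the diets overlapped almost in full. A floor of 3 reads corresponds to 0.257 TPM in control male 3 and 0.225 TPM in PLX5622 male 3, so PLX5622 female 1 was at least 3194-fold and 3647-fold higher than these. The mean was 162 ± 230 TPM for controls and 408 ± 323 TPM under PLX5622 (SD, 5 libraries each). The log2 fold change was 2.18 ± 2.05 (SE, limma adjusted p = 0.869), and it ran from 0.94 to 4.01 when 1 library was left out.

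Enpp2 encodes autotaxin, a secreted enzyme that makes lysophosphatidic acid and is abundant in choroid plexus. It was at 153, 104, 71.2, 77.2 and 102 TPM on control diet and at 134, 219, 72.4, 195 and 114 TPM on PLX5622. The 3 lowest libraries were the same 3 that held little or no Ttr. Enpp2 nonetheless kept 71.2 and 72.4 TPM in the 2 libraries where Ttr was at 0, with 2362 and 2745 reads, and varied 3.08-fold over all libraries. Its log2 fold change was 0.48 ± 0.28 (SE, limma adjusted p = 0.731).

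Ptgds, the lipocalin-type prostaglandin D synthase of meninges, choroid plexus and oligodendrocytes, was at 9.22, 4.37, 3.25, 6.63 and 10.9 TPM on control diet. On PLX5622 it was at 11.99, 14.7, 7.05, 14.8 and 11.4 TPM. In 4 PLX5622 libraries it lay above all 5 controls, and male 3 lay among them. The mean was 6.87 ± 3.20 TPM for controls and 11.998 ± 3.17 TPM under PLX5622 (SD, 5 libraries each), with pooled reads of 355 and 484. The log2 fold change of 0.79 ± 0.25 (SE) had the smallest p of the tested members, at an unadjusted 0.00869 and a limma adjusted p of 0.402. The authors' deposited table gave 0.83 with a DESeq2 adjusted p of 0.308. Choroid genes shared much of this order, since Ttr and Enpp2 were also highest in PLX5622 female 1 and male 2, and their part in the Ptgds values was not tested.

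Foxj1, the transcription factor of motile cilia, followed Ttr in some libraries only. Both were lowest among controls in male 3 and highest of all libraries in PLX5622 female 1, but others differed. It was at 11.4, 8.57, 4.22, 12.4 and 4.85 TPM on control diet and at 12.9, 7.50, 6.75, 13.8 and 4.28 TPM on PLX5622. Control female 1, with 23 reads of Ttr, was the highest control for Foxj1, and PLX5622 female 2, with 3268 reads of Ttr, was the lowest PLX5622 library. The log2 fold change between diets was 0.11 ± 0.33 (SE, limma adjusted p = 0.974).

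The other 13 listed genes of choroid plexus and ependyma did not all share 1 order of libraries. Of the 11 that passed the filter limma called 0, with 1 at an unadjusted p under 0.05 and a median log2 fold change of 0.0057. Male 3 was the lowest control for 10 of the 11 and the lowest PLX5622 library for 9. Kl, which encodes the ageing-related protein klotho of choroid epithelium and was named after its values were seen, was at 0.191 TPM in control female 1 and 2.68 TPM in PLX5622 female 2. Clic6, an intracellular chloride channel protein of that epithelium named likewise, was at 0.499 and 2.21 TPM in these libraries. Not all choroid genes did so, since Folr1, a folate receptor, was at 1.33 and 1.02 TPM and Aqp1, a water channel, at 3.35 and 2.22 TPM, both also named after their values were seen. The ependymal genes named here had the higher value in control female 1. Ccdc153, a coiled-coil gene of ciliated ependyma, was at 18.2 TPM in control female 1 and 1.38 TPM in PLX5622 female 2, and Rarres2, which encodes chemerin, was at 23.7 and 7.62 TPM. Tmem212, an ependymal membrane protein gene named after its values were seen, was at 10.2 and 1.85 TPM.

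**Figure D3:**
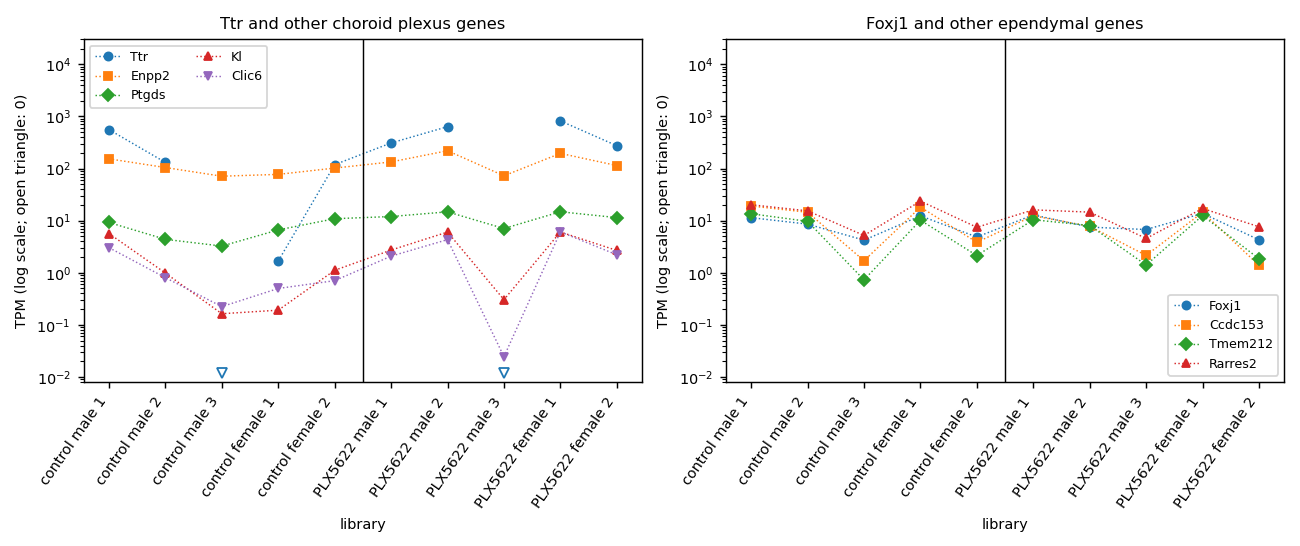
Level in TPM on a log scale of choroid plexus genes (left) and ependymal genes (right) in each of the 10 libraries, with control diet left and PLX5622 right of the line. Dotted lines only join the values of a gene, and open triangles mark Ttr at 0 in male 3 of each diet. Control female 1 is low for Ttr, Kl and Clic6 and high for Ccdc153, Tmem212 and Rarres2, whereas PLX5622 female 2 is mid-range for Kl and Clic6 and low for those 3 ependymal genes.

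Astrocyte markers had a summed level of 156 ± 23.8 TPM for controls and 162 ± 41.5 TPM under PLX5622 (SD, 5 libraries each), from 98.4 TPM in PLX5622 male 3 to 212 TPM in PLX5622 male 1. None of the 10 was called, the median log2 fold change was 0.02, and 6 lay above 0. PLX5622 male 3 was the lowest PLX5622 library for all 10, and control male 3 the lowest control for 6 of the 10.

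Gja1, which encodes connexin 43 of astrocyte gap junctions, was at 59.8, 68.0, 51.2, 66.2 and 65.3 TPM on control diet. It was at 73.9, 66.9, 46.4, 58.9 and 74.9 TPM on PLX5622. The diets overlapped, male 3 was the lowest library in each, and the log2 fold change was 0.03 ± 0.12 (SE), its 95% interval running from -0.23 to 0.30 (limma adjusted p = 0.978). Connexin 43 is also known from endothelium. Its residual SD of 0.23 was the smallest among the astrocyte markers.

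Aldoc, the aldolase isoform of astrocytes, was at 28.6, 22.3, 22.7, 31.9 and 22.3 TPM on control diet and at 39.8, 29.9, 19.2, 29.9 and 25.4 TPM on PLX5622. The PLX5622 values included both the highest and the lowest library. Slc1a3, the glutamate transporter GLAST, was at 27.2, 19.7, 20.4, 33.5 and 27.9 TPM on control diet and at 36.8, 32.3, 13.5, 27.4 and 23.0 TPM on PLX5622. Again the highest and the lowest library both came from PLX5622 males. The log2 fold changes were 0.15 ± 0.17 for Aldoc and -0.0010 ± 0.23 for Slc1a3 (SE, limma adjusted p = 0.900 and 1.000).

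Gfap, the intermediate filament of reactive and fibrous astrocytes, was at 1.84, 1.66, 2.28, 1.46 and 1.94 TPM on control diet. On PLX5622 it was at 4.34, 4.15, 1.19, 2.03 and 3.51 TPM, from 606 pooled reads against 487. In 3 PLX5622 libraries it exceeded all controls, while male 3 lay below all of them. For Gfap the log2 fold change was 0.44 ± 0.24 (SE, limma adjusted p = 0.693), and the authors' deposited table gave 0.74 with a DESeq2 adjusted p of 0.403. Without PLX5622 male 3 it was 0.67, the top of the range over fits that left out 1 library.

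Aqp4, the water channel of perivascular end-feet, was at 5.78, 4.62, 2.19, 4.59 and 4.78 TPM on control diet and at 4.23, 5.14, 1.54, 3.28 and 2.45 TPM on PLX5622. It thus did not share the order of Gfap. Its log2 fold change was -0.34 ± 0.26 (SE, limma adjusted p = 0.806). The remaining 5 astrocyte markers had log2 fold changes from -0.23 for Mlc1, a membrane protein of astrocyte end-feet, to 0.25 for Aldh1l1, a folate enzyme. Slc1a2, the glutamate transporter GLT-1, ranged from 6.88 to 23.1 TPM, S100b, a calcium-binding protein, from 2.09 to 7.22 TPM, and Mlc1 from 3.32 to 15.1 TPM. Cldn10, a claudin of astrocytes and choroid epithelium, had the widest range of the class in fold terms, from 1.08 TPM in control male 3 to 6.58 TPM in control female 1. Over all 10 libraries Slc1a2 averaged 15.5 ± 4.86 TPM and Mlc1 9.32 ± 3.97 TPM (SD). S100b averaged 4.57 ± 1.58 TPM, Cldn10 3.77 ± 1.73 TPM and Aldh1l1, which ranged from 2.20 to 5.09 TPM, 3.13 ± 0.983 TPM.

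The 14 other listed astrocyte genes repeated this order of libraries. All passed the filter, limma called 0 with 1 at an unadjusted p under 0.05, and their median log2 fold change was -0.0042. Male 3 was the lowest control for 13 of them and the lowest PLX5622 library for 12, and 12 genes had it lowest on both diets. Clu, which encodes clusterin, was at 145, 119, 91.4, 151 and 96.9 TPM on control diet and at 159, 139, 80.8, 146 and 94.4 TPM on PLX5622. Glul, the glutamine synthetase gene, differed from these by its high and even level of 1274 to 1744 TPM. Its residual SD of 0.088 lay below the median of all genes, as did that of Sox9, of the same list, at 0.145.

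**Figure D4:**
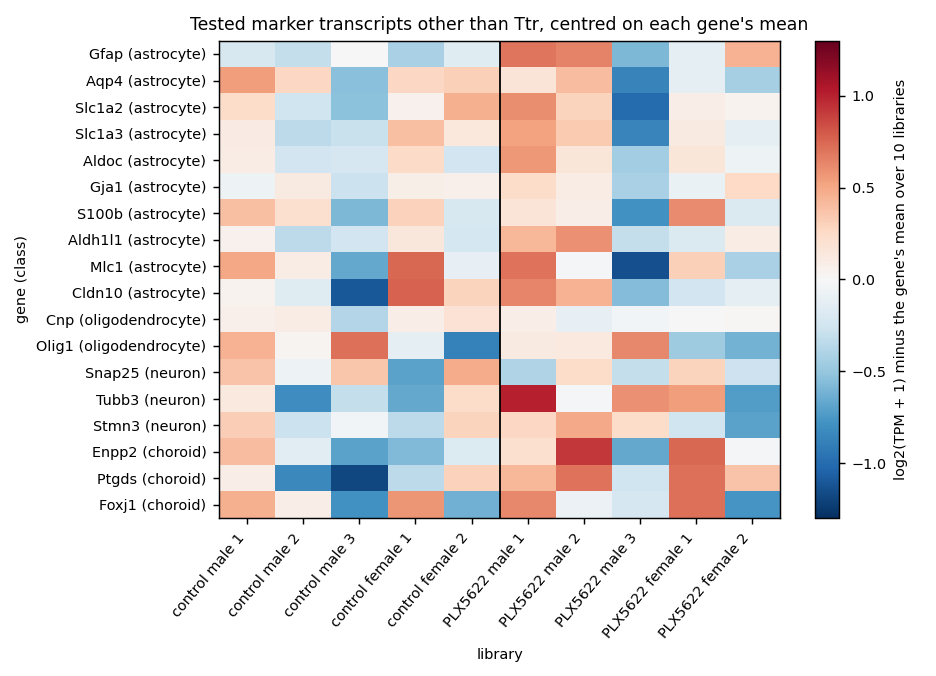
Level of each tested marker other than Ttr in each library, as log2(TPM + 1) minus the gene's mean over the 10 libraries, with blue below and red above the mean and a line between control diet and PLX5622. The columns of male 3 in both diets are mostly blue for astrocyte, Enpp2, Ptgds and Foxj1 rows and red for Olig1, while the Cnp row is nearly white.

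Among oligodendrocyte markers, structural myelin genes were close to absent and Cnp carried most of the class. The summed level was 22.4 ± 1.27 TPM for controls and 21.3 ± 1.47 TPM under PLX5622 (SD, 5 libraries each), and 2 of 8 markers passed the filter. Cnp, a phosphodiesterase of myelin, was at 17.6, 18.0, 12.6, 17.8 and 19.1 TPM on control diet. It was at 17.8, 15.4, 16.3, 16.6 and 16.9 TPM on PLX5622, a narrow range that control values enclosed. Its log2 fold change of -0.02 had a 95% interval from -0.24 to 0.20 (limma adjusted p = 0.980). In the GENCODE M21 annotation 4.23% of its exonic bases are shared with Dnajc7 on the opposite strand, a gene at 106 TPM here. The libraries do not mark strand, and how reads in these shared bases were assigned was not tested.

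Mbp, the myelin basic protein gene that is among the most abundant transcripts of oligodendrocytes, was at 0.510, 0.131, 0.482, 0.172 and 0.519 TPM on control diet. It was at 0.277, 0.281, 0.218, 0.406 and 0.426 TPM on PLX5622, with 13 to 42 reads per library. No library reached 1 TPM, and the diets overlapped. Mog, a surface glycoprotein of myelin, had 1 to 11 reads per library, Mobp, a basic protein of myelin, 0 to 10, and Cldn11, the claudin of myelin, 0 to 7. Pooled reads on PLX5622 over control, scaled to total depth, gave ratios of 0.985 for Mbp (0.761 to 1.27), 1.78 for Mog (1.04 to 3.07), 1.67 for Mobp (0.805 to 3.53) and 0.857 for Cldn11 (0.392 to 1.81). Mean levels over the 10 libraries were 0.315 ± 0.198 TPM for Mog, 0.0490 ± 0.0566 TPM for Mobp and 0.149 ± 0.0846 TPM for Cldn11 (SD). The brackets are 95% intervals of the ratios that cover counting error only, not the spread between mice.

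Mag, the myelin-associated glycoprotein, had 6, 23, 5, 2 and 4 reads on control diet and 0, 0, 0, 1 and 0 reads on PLX5622. In TPM these were 0.181, 0.394, 0.193, 0.0658 and 0.126 against 0, 0, 0, 0.0336 and 0. All 5 control libraries lay above all 5 PLX5622 libraries, although the gap was a single read between control female 1 and PLX5622 female 1. Among the 7083 genes above 0 but under the filter, 0.607% did not overlap between diets and 0.353% had all PLX5622 libraries below all controls. Mag was the single member of the 12 under the filter whose diets did not overlap. The pooled ratio was 0.033, with an interval of 0.00081 to 0.195 for counting error. A limma fit without the filter gave Mag an adjusted p of 0.367 (unadjusted 0.00339), and the authors' deposited table gave a log2 fold change of -4.25 with a DESeq2 adjusted p of 0.153. It was therefore not called by either. The 8 listed microglial genes that lay under the filter summed to 0.690 to 89.1 TPM on control diet, with a median of 58.8 TPM, and to 0.416 to 1.17 TPM on PLX5622, with a median of 0.530 TPM. The lowest control was female 1, which also had the fewest Mag reads of the controls. Cx3cr1 and Trem2, receptors of microglia, were at 0 in all 5 PLX5622 libraries and in control female 1. Their part in the Mag values was not tested.

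Olig1 and Olig2 encode transcription factors of the whole oligodendrocyte lineage, precursors included. Olig1 was at 4.36, 3.01, 5.44, 2.62 and 1.14 TPM on control diet and at 3.23, 3.29, 5.02, 1.84 and 1.55 TPM on PLX5622. Male 3 was the highest library on each diet, the reverse of its place for astrocyte markers. Olig2 was at 1.17, 0.380, 1.80, 0.766 and 1.08 TPM on control diet and at 0.405, 1.47, 0.939, 0.634 and 0.461 TPM on PLX5622, and overlapped between diets. For Olig1 7.26% of exonic bases are shared with the antisense gene Gm15966.

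Olig1 separated by sex rather than by diet. The 6 male libraries ran from 3.01 to 5.44 TPM with a median of 3.82, and the 4 female libraries from 1.14 to 2.62 TPM with a median of 1.70. The sexes did not overlap, which held for 0.792% of tested genes and for no other of the 31 members. The log2 fold change, female minus male, was -0.86 ± 0.19 (SE, unadjusted p = 0.000723, limma adjusted p = 0.457), so it was not called. Of the 19 tested members limma called 0 between the sexes, where 0.0627% of all tested genes were called. Olig1 was the single member at an unadjusted p under 0.05, against 5.8% of all tested genes. The interaction of sex and diet called 0 members and 0% of all genes. For it 1 member, Cldn10, had an unadjusted p under 0.05, against 2.45% of all tested genes. Cldn10 stood at 2.57 TPM in control males and 4.34 TPM in PLX5622 males, and at 5.52 TPM in control females and 2.94 TPM in PLX5622 females (limma adjusted p of the interaction = 0.999).

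Other oligodendrocyte genes divided in the same way as the members. Of 14 listed, 4 passed the filter and limma called 0, with 0 at an unadjusted p under 0.05 and a median log2 fold change of -0.13. Mal, a proteolipid of myelin and of other membranes, summed with the rest to 309 to 412 TPM and made up most of that, at 280 to 396 TPM, while Opalin, a myelin-specific gene named after its values were seen, was listed at 0 in all 10 libraries. Tspan2, a tetraspanin, was at 7.85 to 13.0 TPM. Of 6 precursor genes 3 passed and limma called 0, with 0 at an unadjusted p under 0.05. Their 2 most abundant were Cspg4, the proteoglycan NG2 of precursors and pericytes, at 3.60 to 5.19 TPM, and the receptor Gpr17 at 1.32 to 5.09 TPM.

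Neuron markers were the lowest class. Their summed level was 7.86 ± 3.23 TPM for controls and 7.94 ± 2.62 TPM under PLX5622 (SD, 5 libraries each), from 3.45 TPM in control female 1 to 11.8 TPM in control female 2. Only Snap25, Tubb3 and Stmn3 passed the filter, and limma called 0, with 0 at an unadjusted p under 0.05. Snap25, a SNARE protein of synaptic vesicle release, was at 2.62, 1.67, 2.60, 0.724 and 2.91 TPM on control diet and at 1.13, 2.29, 1.25, 2.41 and 1.31 TPM on PLX5622. The diets overlapped, and the log2 fold change was -0.18 ± 0.25 (SE, limma adjusted p = 0.924).

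Tubb3, the neuronal beta-tubulin, was at 1.97, 0.559, 1.20, 0.716 and 2.20 TPM on control diet. On PLX5622 it was at 4.48, 1.69, 3.11, 2.98 and 0.646 TPM. In 3 PLX5622 libraries it lay above all controls, and female 2 lay among the lowest. Between diets its log2 fold change was 0.56 ± 0.31 (SE, limma adjusted p = 0.709), and the authors' deposited table gave 0.99 with a DESeq2 adjusted p of 0.678. Stmn3, a microtubule-destabilising stathmin, was at 1.94, 0.938, 1.29, 0.861 and 1.87 TPM on control diet and at 1.83, 2.31, 1.77, 0.959 and 0.450 TPM on PLX5622. Its log2 fold change of 0.02 ± 0.22 (SE) became -0.026 with a pseudocount of 0.1.

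The 6 neuron markers under the filter had between 0 and 220 reads per library. Meg3, a long noncoding RNA abundant in neurons, had the most, at 37 to 220 reads, and was at 0.254 to 1.44 TPM. Syn1, synapsin, had 7 to 68 reads, Syt1, the calcium sensor synaptotagmin, 1 to 59, and Camk2a, a calcium-dependent kinase of excitatory neurons, 5 to 79. Rbfox3, the splicing factor known as NeuN, had 2 to 17 reads and Nefl, the light neurofilament, 0 to 20. Over the 10 libraries Syn1 averaged 0.844 ± 0.489, Meg3 0.624 ± 0.360 and Syt1 0.461 ± 0.250 TPM (SD), and Camk2a 0.356 ± 0.208, Nefl 0.175 ± 0.0993 and Rbfox3 0.172 ± 0.0956 TPM. Ratios of pooled reads, PLX5622 over control, ran from 0.499 for Camk2a (0.371 to 0.665) to 2.29 for Rbfox3 (1.48 to 3.60). Rbfox3 was the only one of the 6 above 1. The ratios were 0.663 for Syt1 (0.513 to 0.853) and 0.691 for Syn1 (0.544 to 0.874). They were 0.728 for Meg3 (0.635 to 0.835) and 0.730 for Nefl (0.434 to 1.20). These brackets too cover counting error only. For Nefl 32.8% of exonic bases are shared with Nefm on the opposite strand, which was itself at a mean of 0.0522 TPM. None of these 6 was called in the limma fit without the filter, where 0.0353% of all genes were called and Rbfox3 had an adjusted p of 0.546.

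Of 18 other neuron genes 7 passed the filter and limma called 0, with 0 at an unadjusted p under 0.05 and a median log2 fold change of 0.05. Their summed level of 90.1 to 123 TPM was carried by a few genes rather than by the whole list. Stmn2, a stathmin of growing axons, was at 32.3 to 59.5 TPM, and Nrgn, the calmodulin-binding neurogranin, at 27.3 to 46.8 TPM. By contrast the GABA synthesis gene Gad2, named after its values were seen, did not exceed 0.188 TPM in any library. Gad1, the other GABA synthesis gene of the list and named likewise, did pass the filter. It had 32 to 103 reads per library, against 0 to 13 for Gad2.

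Among markers of the remaining cell types, pericyte genes summed to 320 to 509 TPM, smooth muscle genes to 223 to 368 TPM and fibroblast genes to 2.28 to 5.08 TPM, and limma called 0 of 7, 0 of 6 and 0 of 2 tested members, with 1, 1 and 0 at an unadjusted p under 0.05. Rgs5 and Vtn led the pericyte genes, Myl9 and Tagln those of smooth muscle, and Col1a2 and Dcn those of fibroblasts. Of 5 erythrocyte genes the heme synthesis gene Alas2 was at 34.2 to 116 TPM. The globin genes Hba-a1, Hba-a2, Hbb-bs and Hbb-bt were listed at 0 in all libraries, so Alas2 stood alone in that list. Of the 9 endothelial genes limma called 0, with 0 at an unadjusted p under 0.05.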

How the data were processed

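Polyadenylated RNA of 10 libraries was sequenced without strand information, per the labels' protocols. The submitters' processing notes name STAR 2.7.10a, the mm39 build, featureCounts (Subread 2.0.1) and, for the authors' own comparison, DESeq2 1.32.0 under R 4.1.0. Deposited were TPM for 26264 genes, computed by the authors, and a DESeq2 table with an adjusted p for 19474 genes, whose log2 fold changes, p-values and scores (mean count and test statistic) are the authors' own. Its model formula is not stated in those sources. TPM keeps no depth, but TPM and the authors' mean counts together gave whole reads (100.0% of values within 0.05 reads), 26.4M to 61.5M per library.

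Testing used limma 3.58.1 (R 4.3.3), two-sided, with sex and diet as terms and a variance trend, on log2(TPM + 1) of genes reaching 1 TPM in 5 or more libraries, Benjamini-Hochberg adjustment over all tested genes, threshold 0.05. It was tested on simulated data. For low genes this scale understates the fold change. Pooled read ratios have exact 95% intervals. Tools were Python 3.11.15, numpy 2.4.6, pandas 2.3.3 and scipy 1.17.1.

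Members and lists were chosen with earlier results of these data known. Values in every library are given for the 3 most abundant members of each class, Olig1, Olig2, Foxj1, Gfap, Aqp4, Mbp, Snap25, Ttr and called members. Other lists give called genes or the 2 most abundant. One item of the microglial list is not reported here, and that list is described by its genes under the filter. Mag, Kl, Clic6, Folr1, Aqp1, Tmem212, Opalin, Gad1 and Gad2 were added after their values were seen. Overlapping genes were taken from GENCODE M21 (GRCm38), another build than the files'.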

Additional observations from a re-analysis of the deposited data

Results flagged for a closer look

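Single libraries that lay far from the other 4 of their diet were looked for in 70 groups, made up of the 31 members and 4 class sums on each diet, and 5 stood out. Chance alone gives about 1 in 20 for normally spread values, a rate that need not hold for genes with few reads. Ttr in control male 1 was at 558 TPM against 131 TPM in the next control library, and the summed level of choroid and ependyma markers there was 732 TPM against 248 TPM. These flags are not separate, since Ttr is part of that sum. Cnp in control male 3 was at 12.6 TPM against 17.6 TPM or more in the other controls. Mag in PLX5622 female 1 was at 0.0336 TPM, from 1 read, against 0 in the other 4. Mobp in control female 1 was at 0.137 TPM, from 10 reads, against 0.0377 TPM or less in the other controls.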

How the results depend on the processing

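The count of members called between the diets was 0 under all 8 other settings and in all 10 fits that left out 1 library, with 1 to 4 members at an unadjusted p under 0.05 and adjusted p no lower than 0.235. It was also 0 between the sexes and for the interaction under all settings tried. Among all genes 17 were called, 7 without the filter, 11 with same-numbered libraries of a sex as a replicate block, and 5 to 16 with 1 library left out. In a fit that leaves 1 female on a diet, that library is assumed to vary like the others. Replicate numbers were not taken to pair the libraries: deviations from group means over all tested genes had r of 0.121, 0.031 and 0.190 for males 1 to 3 and 0.157 for the females, so not every pair was over 0.1. Over the 19 members alone r was 0.876, 0.857, 0.963 and -0.408. The deviations were not scaled, so Ttr, with a residual SD of 4.23, outweighs the other members, of which Mlc1 has the largest at 0.67. These r therefore do not measure agreement across all 19 members. Of the 10 libraries, 8 correlated best with their own number. With 2 females per diet, female 1 and female 2 deviate as mirror images, so all female matches rest on 1 correlation. The count is therefore not one of separate matches. The block changed no member's call.

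Class sums on PLX5622 minus control stayed within 1 SD of their main values. With 1 library left out they ranged from -5.92 to 22.5 TPM for astrocytes, -1.55 to -0.57 for oligodendrocytes, -1.03 to 1.16 for neurons and 180 to 420 for choroid and ependyma. Log2 fold changes near 0 changed sign. Stmn3 was -0.026 with a pseudocount of 0.1, Slc1a3 0.0059 with a pseudocount of 5 and 0.017 with median-of-ratios scaling, and Slc1a2 -0.0091 and Cldn10 -0.022 with voom on recovered reads. With 1 library left out the ranges were -0.18 to 0.26 for Slc1a2, -0.17 to 0.21 for Slc1a3, -0.041 to 0.14 for Gja1, -0.20 to 0.14 for S100b, -0.48 to 0.026 for Mlc1, -0.20 to 0.25 for Cldn10, -0.12 to 0.013 for Cnp, -0.21 to 0.025 for Olig1, -0.10 to 0.19 for Stmn3 and -0.098 to 0.36 for Foxj1. The cause was not tested.

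With 5 libraries per diet and this spread, differences of the size seen for Ttr, Gfap or Tubb3 could not be told from 0. The titles call the replicates biological.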
